A study of Mus musculus with 4 samples.

Results

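Voltage-gated and potassium ion channels were followed in the neocortex of mouse embryos. The members were the probes whose single platform gene symbol begins with Kcn, Scn, Cacn, Hcn, Clcn, Trpc, Trpv or Trpm and that had a value on 3 or more of 4 arrays. Of 91 probes with such a symbol, 73 qualified, which stand for 70 genes. Over the whole table, values on as many arrays were held by 5828 probes, and by 5140 genes with a symbol of their own. There were 33 potassium, 19 calcium, 11 TRP, 6 chloride, 2 HCN and 2 sodium channel probes. Each two-colour array carried total RNA of a separate null mutant sample beside RNA of normal neocortex, which was pooled from 4 control replicates and was the same for all arrays. Nulls and controls were both on the C57BL/6 background at embryonic day 16, and the labels describe the null brain as synaptically silent. The null RNA carried the dye Cy3 on replicate 1 and Cy5 on replicates 2, 3 and 4. For replicate 1 the source name of the null RNA gives embryonic day 14, against day 16 in its other labels.

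Ion channels are membrane proteins with a gated pore that lets selected ions pass. Sodium and calcium channels open on depolarisation and drive action potentials, calcium entry and transmitter release, whereas potassium channels return the membrane towards rest and set firing patterns. HCN channels pass mixed cations on hyperpolarisation, ClC proteins carry chloride at the cell surface and in endosomes and lysosomes, and TRP channels are cation channels with diverse chemical and physical triggers. Many pore proteins bind auxiliary subunits that set their trafficking and gating. Because the series asks which genes depend on synaptic activity, the genes that set excitability are of interest in a brain without transmission.

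The values are log ratios of both dyes, taken as log2, so that 1 stands for a 2-fold difference between the channels. Their numerator is not given in the sources used here, and signs are therefore printed as deposited, with no statement of higher or lower in the null. Replicates 2 to 4 run the same way whichever dye is the numerator, and their mean against 0 was the main test. The pool counts as 1 control sample, so the spread among controls is not covered, and dye and genotype cannot be told apart on these arrays. Of the table's 6856 probes, 5777 to 5873 had a value on each array, and the array medians lay between -0.031 and 0.0044. Channel probes had an SD of 0.69 on replicate 2 and 0.63 on replicate 3. It was 0.61 on replicate 1, and lowest on replicate 4 at 0.29. Bulk ratios cannot tell fewer cells of a type from less RNA per cell, and a ratio holds no level, so the labelled tissue could not be checked against its markers.

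None of the channels passed the test on replicates 2 to 4. Of the 72 channel probes measured on all 3 arrays, 0 had an adjusted p under 0.05 in limma, and the background was 0% of 5720 probes. The smallest adjusted p of a channel was 0.473. At an unadjusted p under 0.05 there were 4 channel probes, or 5.56%, against 9.67% of all probes tested, so that the share among channels was below the background. All 4 were negative, namely Cacnb1, Cacnb2, Cacng1 and Trpv2. Over the whole table, the probes under that p were 232 negative and 321 positive. The number of such channel probes was 2 without replicate 2 and 13 without replicate 4. That is 2.78% and 18.1% of channel probes, against 4.09% and 10.9% of all probes under those same settings.

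The channel probes had a median mean log ratio of -0.073, against -0.016 over all probes tested. Means below 0 were found for 44 of 72, or 61.1%, against 52.6% of all probes. A negative value on all 3 arrays was seen for 11 channel probes, or 15.3%, against a background of 17.3%, and a positive value on all 3 for 6, or 8.33%, against 16.3%. Means lay within 0.5 of 0 for 67 of the 72 and within 0.25 for 48. The median channel probe had a 95% interval with arms of 0.44 on each side, which is 1.36-fold. For 65 of the 72 the interval lay wholly within 1 of 0, which bounds the difference at 2-fold for each of them taken singly. These intervals cover the spread between the 3 arrays only, and a p above the threshold does not show that null and control had equal levels.

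**Figure D1:**
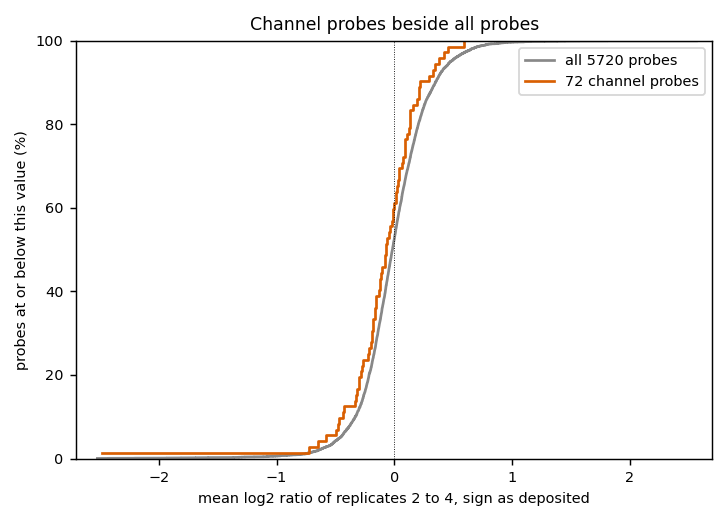
Cumulative share of probes (percent, vertical axis) against the mean log2 ratio of replicates 2 to 4 with its sign as deposited (horizontal axis), for the 72 channel probes and for all 5720 probes tested. The channel curve runs close to that of all probes, with medians of -0.073 and -0.016, and its lowest point is Cacnb1 at -2.48.

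Calcium channels gave 3 of the 4 probes at an unadjusted p under 0.05, or 15.8% of the class, against 9.67% of all probes. A mean below 0 was found for 15 of their 19 probes, or 78.9%, against 52.6% of all probes. That number was 14 with each array centred on its median, 15 with arrays also brought to a common scale, and 11 without replicate 3. The median of the class was -0.16. Taken array by array, replicates 2, 3 and 4 had class medians of -0.13, -0.31 and -0.11, and replicate 1, in the opposite dye orientation, had -0.14. A single sign on replicates 2 to 4 was kept by 6 negative and 3 positive of the 19 probes. Over all probes the shares were 17.3% negative and 16.3% positive. The other calcium channel probes held both signs.

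The beta subunits are cytoplasmic proteins that bring the pore to the membrane and shift its gating. Cacnb1, best known from skeletal muscle and also made in brain, had log2 ratios of -4.72, -2.13 and -0.59 on replicates 2, 3 and 4 and -0.15 on replicate 1. All 4 arrays were negative, but the sizes ran from near 0 to the most extreme value of any channel. The mean of replicates 2 to 4 was -2.48 ± 2.09 (SD, n = 3), with a 95% interval from -4.27 to -0.69, an unadjusted p of 0.0151 and an adjusted p of 0.473 in limma. Without replicate 2 that mean was -1.36.

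Cacnb2, the main beta subunit of heart muscle and also found in brain, had -0.50, -0.53 and -0.37 on replicates 2, 3 and 4 and 0.32 on replicate 1. These 3 arrays of a single dye orientation lay close together, and the array of the other orientation had the opposite sign as deposited. The mean was -0.47 ± 0.08 (SD, n = 3), or 1.38-fold in size, with an interval from -0.81 to -0.12, and limma gave it an adjusted p of 0.473. Cacnb4, a beta subunit of cerebellum and forebrain, was measured by 2 probes with means of -0.0048 and -0.13, and each held both signs among replicates 2 to 4.

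The gamma subunits fall into a muscle type and a group that escorts AMPA receptors at synapses. Cacng1, the gamma subunit of skeletal muscle, had -1.46, -0.45 and -0.26 on replicates 2, 3 and 4 and -0.06 on replicate 1. All arrays were negative, with replicate 2 furthest from 0. The mean of replicates 2 to 4 was -0.72 ± 0.65 (SD, n = 3), with an interval from -1.36 to -0.081, an unadjusted p of 0.0333 and an adjusted p of 0.484 in limma. Among the AMPA receptor partners, Cacng4 had -0.51, -0.88 and -0.04 on replicates 2, 3 and 4, with a mean of -0.47 ± 0.42. Cacng2, known as stargazin, had 0.04, -0.74 and 0.14, and Cacng3 had 0.05, 0.56 and -0.03. On replicate 3 these relatives thus stood on opposite sides of 0, with no common shift of the AMPA receptor partners.

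Since Cacnb1 and Cacng1 belong to the channel of skeletal muscle, the list of smooth and striated muscle genes is given beside them. Of its 17 genes, 6 had values on replicates 2 to 4, with 5 means below 0 and a median of -0.14. Over all probes 52.6% of means were below 0. At an unadjusted p under 0.05 there were 0, against 9.67% of all probes. The slow skeletal troponin gene Tnnt1 had -1.46, -0.44 and -0.05 on replicates 2, 3 and 4 and 1.27 on replicate 1, with a mean of -0.65 ± 0.73 (SD, n = 3). Tnni1, another slow troponin gene, had -0.15 ± 0.10, and the muscle creatine kinase gene Ckm had -0.14 ± 0.12. In the other direction, the cardiac troponin gene Tnnt2 had -0.05, 1.23 and 0.04, with a mean of 0.41 ± 0.72. The remaining 2 genes were Des with -0.26, -0.11 and -0.77, and Acta1 with -0.36, -0.34 and 0.31. On replicate 3 Tnnt2 was thus positive, and Tnnt1, Tnni1, Ckm, Des and Acta1 were negative. The part of muscle RNA in the values of Cacnb1 and Cacng1 was not tested.

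The pore subunits, termed alpha1, carry the voltage sensor and the calcium filter, and 7 of their 8 probes had a mean below 0, or 4 of 8 without replicate 3. Cacna1a, the pore of the P/Q-type channel that triggers transmitter release, had 0.05, -0.31 and -0.21 on replicates 2, 3 and 4 and a mean of -0.16 ± 0.18 (SD, n = 3). Cacna1b, the N-type pore with the same task, had 0.15, -0.72 and -0.11 and a mean of -0.23 ± 0.45. Both presynaptic pores were positive on replicate 2 and negative on the other two. Of the L-type pores, which couple activity to transcription, Cacna1c had 0.13, 0.04 and 0.15, with the smallest SD of any channel at 0.055 around a mean of 0.10. Cacna1d had 0.36, -0.02 and -0.58. The 95% interval of Cacna1c ran from -0.24 to 0.45.

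Cacna1e, the R-type pore, had -0.15, -0.36 and 0.18 on replicates 2, 3 and 4. The T-type pores open near the resting potential. Cacna1g had -0.66, -0.18 and -0.11 with a mean of -0.32 ± 0.30 (SD, n = 3), negative on all arrays. Cacna1h was read by 2 probes, with means of -0.12 and -0.30, which had the same sign on 2 of 4 arrays and differed by up to 1.08 on replicate 1. The extracellular alpha2delta subunits raise the number of channels at the surface. Cacna2d1, the main target of gabapentin, had 0.47, 0.50 and 0.0045, and Cacna2d3 had 0.52, 0.20 and 0.17, so that both were positive on all 3 arrays. Their means were 0.33 ± 0.28 and 0.29 ± 0.20, both with an adjusted p of 0.57 in limma. Cacna2d2 had -0.27, -1.20 and 0.15.

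**Figure D2:**
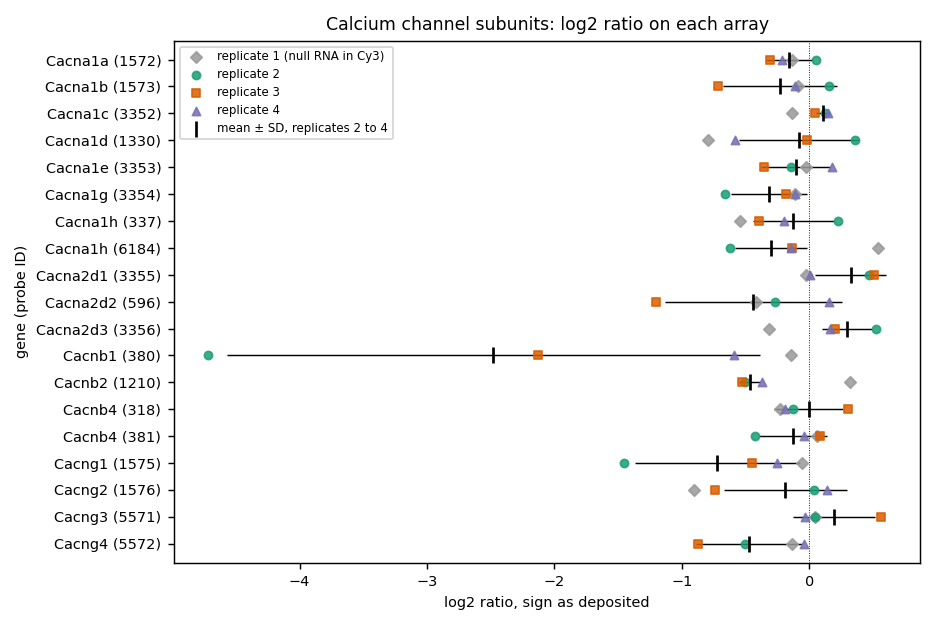
Log2 ratio (horizontal axis, sign as deposited) of 19 calcium channel probes (vertical axis, gene with probe ID), ordered as pores, alpha2delta, beta and gamma subunits; symbols show the 4 arrays, and the black bar and line give the mean ± SD of replicates 2 to 4. Cacnb1 spreads from -4.72 to -0.15, whereas Cacnb2 has its 3 Cy5 arrays between -0.53 and -0.37 and replicate 1 at 0.32.

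Potassium channels, with 32 probes tested, had a median of -0.017 and split into 17 negative and 15 positive means. The negative share was 53.1%, against 52.6% of all probes. None of the potassium channel probes reached an unadjusted p under 0.05, against 9.67% of all probes. A single sign on replicates 2 to 4 was found for 2 of them, Kcnk2 (negative) and Kcnd2 (positive). Over all probes 17.3% were negative and 16.3% positive on these 3 arrays. The means ran from -0.58 for Kcne1 to 0.59 for Kcnd1.

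Among the voltage-gated pores, 8 of 13 probes had a positive mean, with a median of 0.072, and 7 of 13 were positive with arrays on a common scale. The Kcnd genes encode A-type channels that delay firing in dendrites. Kcnd1 had 1.42, -0.07 and 0.43 on replicates 2, 3 and 4 and -0.64 on replicate 1, with a mean of 0.59 ± 0.76 (SD, n = 3). Its relative Kcnd2, the major A-type pore of forebrain neurons, had 0.02, 0.35 and 0.02, and Kcnd3 had -0.61, 0.09 and 0.02. The high value of Kcnd1 on replicate 2 was not shared by the other two.

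Kcnq1, a pore of heart and inner ear, was read by 2 probes. One had 0.47, 0.93 and -0.03 on replicates 2, 3 and 4, with a mean of 0.46 ± 0.48 (SD, n = 3), and the other -0.08, 0.60 and -0.30, with a mean of 0.072 ± 0.47. Both were highest on replicate 3 and lowest on replicate 4, and they differed by 0.27 to 0.55 on each array. Kcnq5, a pore of the neuronal M-current, had a mean of 0.13 ± 0.18. In the Kcnh family, which shapes repolarisation, Kcnh7 had 0.68, 0.44 and -0.07, Kcnh2 had -0.19, 0.58 and -0.35, and Kcnh3 had -0.11, -0.26 and 0.16. On replicate 1 all 3 were well below 0, at -0.91 for Kcnh7, -1.17 for Kcnh2 and -0.69 for Kcnh3. The Shaker relatives stayed near 0 in their means, with Kcna3 at -0.13 ± 0.34, Kcna4 at 0.16 ± 0.64, Kcna5 at -0.072 ± 0.20 and Kcna6 at -0.023 ± 0.21.

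The inward rectifiers hold neurons near rest. Kcnj3 and Kcnj6 encode subunits that join in the G protein-gated channel, and their values ran alike. Kcnj3 had 0.31, -0.46 and 0.42 on replicates 2, 3 and 4 with 0.39 on replicate 1, and Kcnj6 had 0.40, -0.25 and 0.12 with 0.34 on replicate 1. Both were negative on replicate 3 and positive on the other arrays, with means of 0.094 ± 0.48 and 0.091 ± 0.33 (SD, n = 3). Kcnj11, the pore of the ATP-sensitive channel, had -0.47, -0.94 and 0.12, which averages -0.43 ± 0.53 (adjusted p 0.582 in limma). Kcnj15 had -0.37, -0.85 and 0.32 and so followed the same order as Kcnj11. Kcnj4 and Kcnj1 had means of -0.18 ± 0.47 and -0.076 ± 0.42.

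Two-pore channels carry background leak. Kcnk2, a leak channel opened by stretch and lipids, had -0.13, -0.41 and -0.29 on replicates 2, 3 and 4, with 0.079 on replicate 1 and a mean of -0.28 ± 0.14 (SD, n = 3). It was the only fitted potassium channel negative on all 3 arrays. Kcnk1 had a mean of -0.16 ± 0.17. Kcnk3, an acid-sensitive leak channel, lacked a value on replicate 3 and was not in the fit. Its values were -0.92 on replicate 1, -0.42 on replicate 2 and -0.56 on replicate 4, so the 3 arrays that measured it were all negative as deposited. The large-conductance pores, opened by calcium or alkaline pH, had means of -0.066 ± 0.28 for Kcnma1 of brain and muscle and 0.21 ± 0.37 for Kcnu1 of sperm.

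Auxiliary subunits of potassium channels had a median of -0.012, with 5 of 9 means negative and 0 with a single sign on all 3 arrays. Kcne1, which slows the gating of the Kcnq1 pore, had -0.48, -1.43 and 0.16 on replicates 2, 3 and 4, but 2.15 on replicate 1. The 2 probes of its partner Kcnq1 were positive on replicate 3, where Kcne1 was most negative. Kcnip2, a calcium sensor bound to the A-type pores, had -0.85, 0.74 and 0.07, and Kcnab2, a beta subunit of Shaker channels, had -0.73, 0.63 and -0.01. Both were low on replicate 2 and high on replicate 3, with means of -0.012 ± 0.79 and -0.039 ± 0.68 (SD, n = 3). The other sensor, Kcnip3, which also acts as a transcriptional repressor, lay within 0.18 of 0 on replicates 2 to 4. Kcne3 had a mean of -0.19 ± 0.33, Kcnab1 and Kcnab3 each of 0.037, and the subunits of the large-conductance channel, Kcnmb1 and Kcnmb4, had -0.044 ± 0.21 and 0.13 ± 0.20.

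**Figure D3:**
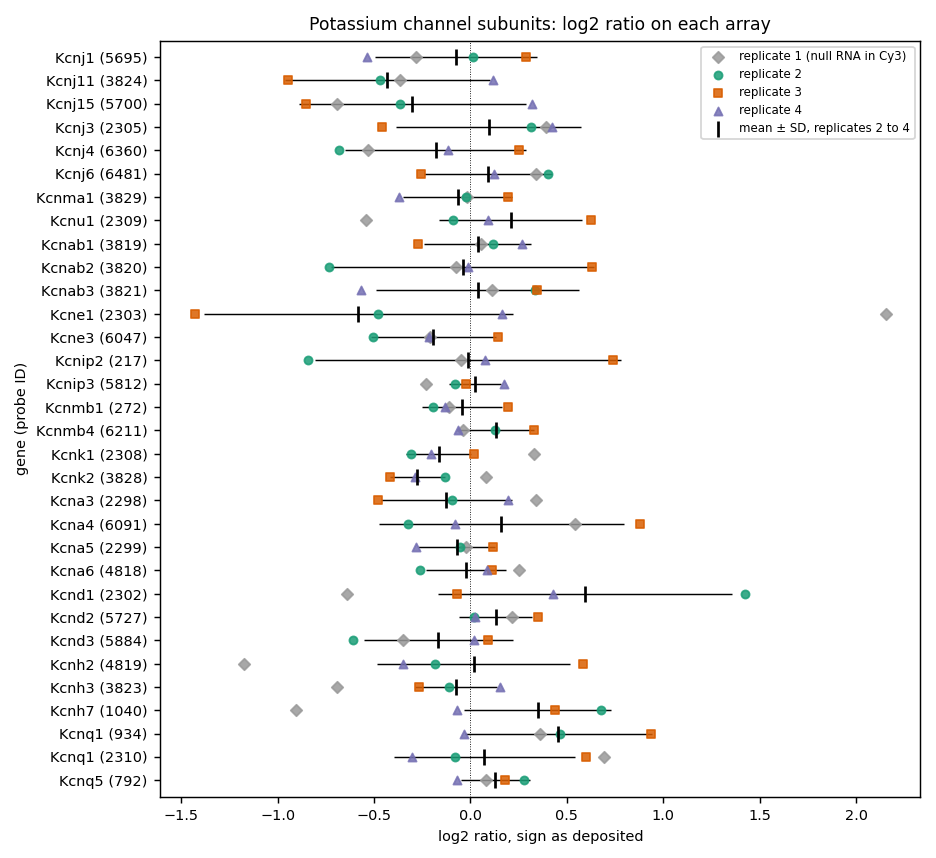
Log2 ratio (horizontal axis, sign as deposited) of 32 potassium channel probes (vertical axis, gene with probe ID), from inward rectifiers at the top to voltage-gated pores at the bottom; symbols show the 4 arrays, and the black bar and line give the mean ± SD of replicates 2 to 4. Most arrays scatter on both sides of 0, Kcne1 lies at 2.15 on replicate 1, and Kcnd1 lies at 1.42 on replicate 2.

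Sodium channels were measured by 2 probes only. Scn1a, the sodium channel pore of inhibitory neurons that is linked to epilepsy, had -0.31, -0.22 and 0.045 on replicates 2, 3 and 4, with 0.22 on replicate 1 and a mean of -0.16 ± 0.18 (SD, n = 3). Scn11a, a pore of pain-sensing neurons, had -0.14, -0.04 and -0.47, with -0.17 on replicate 1 and a mean of -0.21 ± 0.23. Their adjusted p in limma was 0.736 and 0.680. Of the HCN channels, which drive rhythmic firing, Hcn3 had -0.61, -0.41 and 0.42. Hcn4, the main pacemaker channel of the heart and a channel of the thalamus, had -0.74, 1.06 and -0.65, with -0.76 on replicate 1. The 3 arrays other than replicate 3 gave Hcn4 nearly equal values as deposited, and the mean of replicates 2 to 4 was -0.11 ± 1.01.

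ClC proteins had 4 of 6 means below 0, and none reached an unadjusted p under 0.05, against 52.6% and 9.67% of all probes. Clcn2, a chloride channel of the cell surface in neurons and glia, had -0.34, -0.65 and -0.0086 on replicates 2, 3 and 4, with -0.18 on replicate 1 and a mean of -0.33 ± 0.32 (SD, n = 3). Of the chloride-proton exchangers of endosomes and lysosomes, Clcn6 had 0.22, -1.14 and 0.07, and Clcn7 had -0.02, -0.66 and 0.13. On replicate 3 both were far below their other arrays. Clcn1, the chloride channel of skeletal muscle, had -0.45, 0.89 and -0.06, negative on replicates 2 and 4 and positive on replicate 3.

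The cAMP response element is bound by CREB, a transcription factor that neuronal activity can switch on, and its palindrome TGACGTCA was sought in RefSeq promoter windows of assembly GRCm38.p6, which reach from 250 bases before to 50 after a start site. A palindrome reads the same on both strands, and it contains both strands of the shorter element TGACG. Windows were found for 56 of the 70 member genes, 81 in all. The full element stood in 2 of them, or 2.47%, against 1.79% of all 32851 windows. The shorter element, on either strand, stood in 23.5% of the members' windows and in 20.8% of all windows. The stretches below are shown because they hold the full element, in Clcn3 and Clcn4, or the shorter element in the beta subunit with the closest arrays, Cacnb2. Capitals mark the element, and each line reads 5′ to 3′ on the gene's strand. The stretch of Clcn3 lies at chr8:60983283-60983312 on the minus strand, that of Clcn4 at chr7:7299558-7299807 on the minus strand and that of Cacnb2 at chr2:14823842-14824091 on the plus strand.
Clcn3: cgtcaacgcgcTGACGTCAcgcgcgtgcga
Clcn4: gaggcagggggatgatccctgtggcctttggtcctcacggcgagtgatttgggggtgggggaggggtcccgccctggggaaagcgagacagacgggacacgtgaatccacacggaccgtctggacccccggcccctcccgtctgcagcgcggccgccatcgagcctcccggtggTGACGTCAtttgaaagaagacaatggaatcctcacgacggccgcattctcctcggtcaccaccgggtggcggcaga
Cacnb2: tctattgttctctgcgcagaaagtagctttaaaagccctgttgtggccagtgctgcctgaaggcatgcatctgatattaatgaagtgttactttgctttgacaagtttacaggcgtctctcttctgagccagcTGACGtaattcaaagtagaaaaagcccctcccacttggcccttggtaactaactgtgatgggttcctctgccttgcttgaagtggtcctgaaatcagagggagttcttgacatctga

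Both genes with the full element had means of replicates 2 to 4 close to 0, with single arrays further away. Clcn3, a chloride-proton exchanger of endosomes and synaptic vesicles, had 0.39, -0.18 and 0.0015 on replicates 2, 3 and 4, with 0.48 on replicate 1 and a mean of 0.069 ± 0.29 (SD, n = 3). Clcn4, a related exchanger, had -0.08, 0.19 and -0.14, with 0.44 on replicate 1 and a mean of -0.0096 ± 0.18. Their intervals ran from -0.35 to 0.49 and from -0.38 to 0.36. A match of letters is a description of the window and not a bound site.

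TRP channels gave 1 probe at an unadjusted p under 0.05, or 9.09%, against 9.67% of all probes. Of their 11 means 7 were positive, with 36.4% below 0 against 52.6% of all probes. Trpv2, a cation channel of sensory neurons, growing axons and macrophages, had -0.70, -0.77 and -0.03 on replicates 2, 3 and 4 and -0.20 on replicate 1. All 4 arrays were negative, with replicate 4 next to 0. The mean of replicates 2 to 4 was -0.50 ± 0.40 (SD, n = 3), with an interval from -0.98 to -0.019, an unadjusted p of 0.0440 and an adjusted p of 0.504 in limma. Its relative Trpv4, gated by osmotic swelling and warmth, had 0.14, 0.23 and 0.76, with -0.28 on replicate 1 and a mean of 0.38 ± 0.33. These relatives were thus on opposite sides of 0 on each of replicates 2 to 4.

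The TRPM genes encode channels with unlike tasks. Trpm1, the transduction channel of retinal bipolar cells, had -0.37, -0.42 and -0.17 on replicates 2, 3 and 4, with -0.16 on replicate 1 and a mean of -0.32 ± 0.13 (SD, n = 3). Trpm7, a widely expressed magnesium and calcium channel fused to a kinase, had 0.26, 0.12 and 0.26, with -0.23 on replicate 1 and a mean of 0.21 ± 0.08. The 3 Cy5 arrays of each lay close together, yet neither gene passed, with adjusted p of 0.539 and 0.653 in limma. Trpm5, of taste cells, had -0.18, -0.78 and 0.17.

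Of the 6 TRPC genes, whose products open downstream of phospholipase C, 5 had a positive mean, or 4 with arrays on a common scale and 2 without replicate 2. Trpc5, a channel of growth cones, had -0.045 on replicate 2, whereas the 3 other arrays lay between 0.65 and 0.69. The mean of replicates 2 to 4 was 0.42 ± 0.40 (SD, n = 3), with an adjusted p of 0.549 in limma. Trpc6 had the widest spread of the family, with -0.065, -1.996 and 0.13 on replicates 2, 3 and 4 and 2.95 on replicate 1. Trpc4 had 0.56, 0.55 and -0.84, and Trpc2, of the vomeronasal organ, had 0.55, 0.35 and -0.25. Trpc1 and Trpc7 lay near 0 in the mean, at 0.013 ± 0.14 and 0.033 ± 0.20, although Trpc7 had -1.02 on replicate 1.

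**Figure D4:**
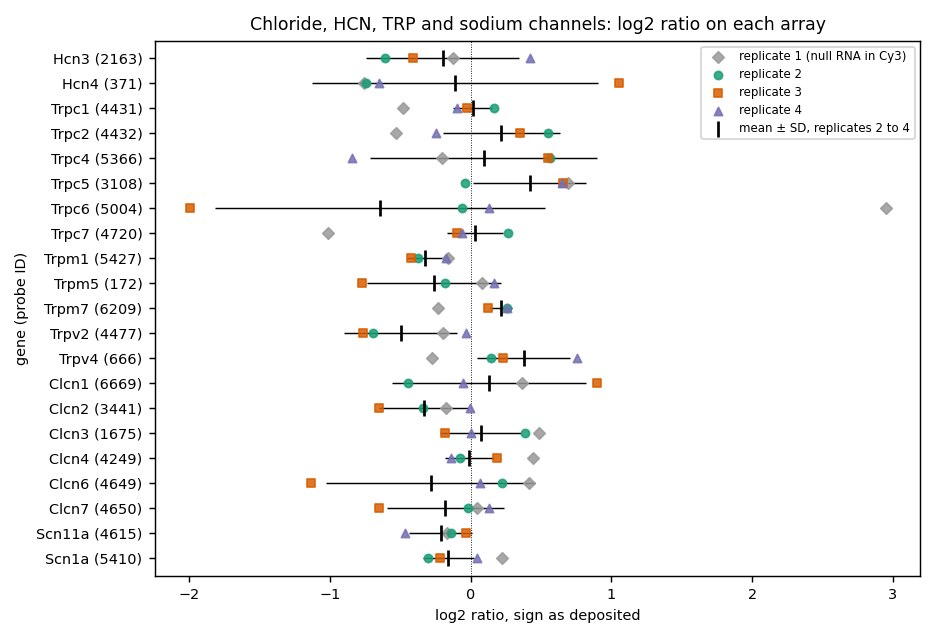
Log2 ratio (horizontal axis, sign as deposited) of 2 HCN, 11 TRP, 6 chloride and 2 sodium channel probes (vertical axis, gene with probe ID); symbols show the 4 arrays, and the black bar and line give the mean ± SD of replicates 2 to 4. Trpc6 spans from -1.996 on replicate 3 to 2.95 on replicate 1, whereas the 3 Cy5 arrays of Trpm1 and Trpm7 lie close together on opposite sides of 0.

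The array with null RNA in the other dye offers a view of each channel in both orientations. Were the ratio formed as channel 2 over channel 1, the sign of replicate 1 would need turning before averaging. If the authors had already turned it, it enters as deposited. With replicate 1 turned, 8 of 72 channel probes had an unadjusted p under 0.05 in limma, or 11.1%, against 8.44% of 5687 probes. They were Cacnb2, Kcnh7, Kcne1, Kcnd1, Cacna1h, Cacnb1, Cacna2d3 and Trpv4, of which 4 were positive and 4 negative, and the smallest adjusted p was 0.509. As deposited, 5 had such a p, or 6.94%, against 7.12% of all probes. These were Trpc5, Cacnb1, Trpv2, Kcnq1 and Cacng1, with 0.663 as the smallest adjusted p in limma. The count of 8 became 4 without replicate 1 (5.56%, against 9.67% of all probes) and 3 without replicate 2 (4.17%, against 4.69%). It was 3 without replicate 3 (4.11%, against 8.56%) and 6 without replicate 4 (8.33%, against 5.89%). The count of 5 became 4 without replicate 1 (5.56%, against 9.67% of all probes) and 2 without replicate 2 (2.78%, against 3.84%). It was 5 without replicate 3 (6.85%, against 4.76%) and 7 without replicate 4 (9.72%, against 8.49%).

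With replicate 1 turned, Cacnb2 had a mean of -0.43 ± 0.10 (SD, n = 4), a limma p of 0.00850 before and 0.509 after adjustment, and all 4 arrays were negative. Kcne1 had -0.97 ± 1.02 and Kcnh7 0.49 ± 0.42. Trpc6 had -1.22 ± 1.499 and missed the mark with an unadjusted p of 0.0527 in limma. As deposited, Trpc5 had a mean of 0.49 ± 0.35, Trpv2 of -0.42 ± 0.36 and Cacng1 of -0.56 ± 0.62. Cacnb1 was the only gene in both lists, with a mean of -1.82 ± 2.15 with replicate 1 turned and -1.90 ± 2.07 as deposited, and in both it rested on replicates 2 and 3. A single sign on all 4 arrays was held by 8 channel probes with replicate 1 turned and by 9 as deposited. The same share over all probes was not computed, so nothing about the channels is read from these counts. Both 4-array fits share 3 arrays with the main test and are no separate evidence.

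**Figure D5:**
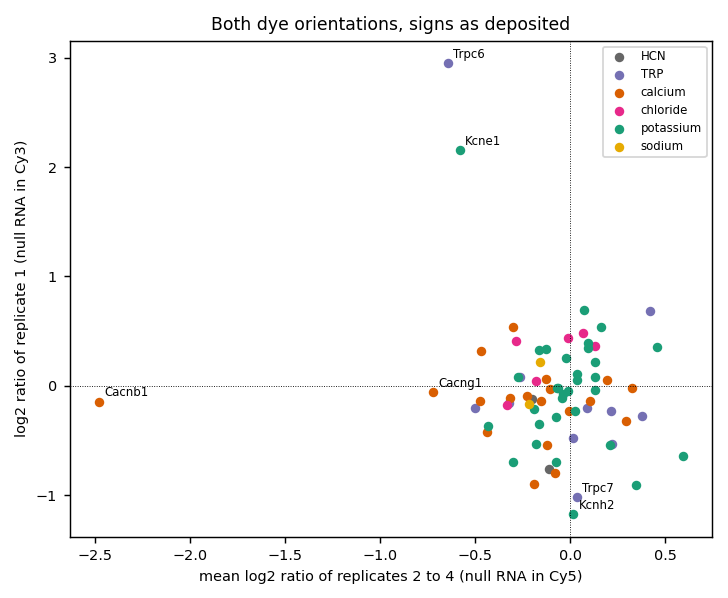
Log2 ratio of replicate 1, with null RNA in Cy3 (vertical axis), against the mean log2 ratio of replicates 2 to 4, with null RNA in Cy5 (horizontal axis), for 72 channel probes coloured by ion, with signs as deposited. Trpc6 and Kcne1 stand at the top left with 2.95 and 2.15 on replicate 1, and Cacnb1 stands alone at the far left with -2.48 and -0.15.

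Across the 72 channel probes, replicate 2 correlated with replicate 3 at a Pearson's r of 0.371 (Spearman's rho 0.188) and with replicate 4 at 0.232 (rho 0.114). Replicates 3 and 4 had r of -0.162 (rho -0.257). Set against replicates 2, 3 and 4 in turn, replicate 1 gave r of -0.0543, -0.291 and 0.161. These values describe probes that share arrays and a control pool, and they are not a test over samples. Channels with a high ratio on 1 array were thus often not those with a high ratio on the next. Over all 5687 probes complete on 4 arrays, r was 0.238 for replicates 2 and 3 and 0.226 for 2 and 4. It was -0.00217 for 3 and 4, and -0.116 to 0.0773 for the pairs with replicate 1. Low agreement between arrays was therefore not particular to the channels.

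The 18 channel probes without a value had none on any array, which is 19.8% of the matching probes, against 14.3% of the whole table. Inward rectifiers held 7 of them, out of 13 probes, namely Kcnj2, Kcnj5, Kcnj8, Kcnj9, Kcnj12, Kcnj16 and a further probe of Kcnj6. The others were Kcna1, Kcnc2, Kcnh1, Kcns1, Kcnk5, Kcne1l, Kcnip4, Cacna1f, Clcn5, Hcn2 and Scn10a. The files do not say why a value is missing, so nothing is read from it about the level of these genes.

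Genes that act with the channels but fall outside the symbol rule were listed as well, among them anchors, pumps, exchangers, calcium release channels and regulators. Of 76 listed symbols, 34 genes had values on replicates 2 to 4, on 38 probes. Of these probes 21 had a negative mean, against 52.6% of all probes, and the median was -0.068. Of the 38 probes, 2 had an unadjusted p under 0.05, against 9.67% of all probes. None passed the adjusted threshold in limma, against the background of 0% given above. The negative probe of the 2 was Slc12a4, a potassium-chloride cotransporter, at -0.82, -0.45 and -0.35 with a mean of -0.54 ± 0.25 (SD, n = 3). The positive one was a probe of Ryr3, a calcium release channel of the endoplasmic reticulum, at 0.34, 0.68 and 0.28 with a mean of 0.43 ± 0.22, while a further probe of that gene had a mean of 0.038. Itpr3, an IP3 receptor, had -1.01 ± 1.21 and Sgk1, a kinase that regulates many channels, had -0.52 ± 0.56.

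Markers of other cells that a dissection could hold are given for these same arrays. The vessel list had 9 of 13 means below 0 with a median of -0.18, meninges 7 of 8 with -0.26, blood 4 of 6 with -0.14 and choroid plexus 2 of 5 with 0.064. Microglia had 2 of 9 below 0 with a median of 0.56, and neocortical neurons 6 of 9 with -0.053. Over all probes tested, 52.6% of means were below 0, with a median of -0.016. At an unadjusted p under 0.05 in limma stood 5 vessel, 3 meninges and 2 blood probes, all negative, and 4 microglia probes, all positive. Choroid plexus had 1 negative and 2 positive such probes, neocortical neurons 2 negative and 1 positive, against 9.67% of all probes in either direction, and 0 in any list passed the adjusted threshold. The medians of the vessel and meninges lists were negative on each of the 4 arrays as deposited, as was that of the calcium channels. The 72 channel probes, which include the 19 of calcium channels, also had negative medians, at -0.102, -0.085, -0.022 and -0.038 on replicates 1, 2, 3 and 4. Each other ion class had a positive median on some array. It was 0.16 for potassium and 0.32 for HCN on replicate 3, and 0.14 for TRP on replicate 2. On replicate 1 it was 0.39 for chloride and 0.026 for sodium. The trait of the calcium class was thus shared with the vessel and meninges lists, and not with the other ion classes. Replicate 1 had the opposite dye orientation, so nothing is read from a single sign on all 4 arrays. The part of the cells of these lists in the channel values was not tested.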

How the data were processed

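Total RNA was measured on 4 two-colour arrays. The authors deposited a single column per array, taken as a log2 ratio. The values centred near 0, but neither this nor their size settles the base. All fold sizes given rest on that assumption. The sources used here give no log base, background correction, normalization or numerator. Unused columns of values numbered 0. The mutated gene is not reported here. Scanner intensities were not used, so signal over background is unknown, and the number of arrays limits the precision.

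Of 6856 probes, 6269 had 1 gene symbol in the platform annotation, 6 had several and 581 none. Probes of the latter kinds stayed in the tests and were not named. The mean log ratio of each probe was tested against 0 (two-sided) with limma 3.58.1 (lmFit, eBayes; R 4.3.3). Only probes complete on the fitted arrays entered, and the Benjamini-Hochberg adjustment ran over all of them, with a threshold of 0.05. The labels call the nulls biological replicates.

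Members, gene lists and tests were chosen with earlier results of these data known. The members given with every array were any past the threshold in any fit, the 3 with the smallest p of each ion class (all where a class had few), those at an unadjusted p under 0.05 and a list of cortical channels. The remaining channels were added in short after their values were seen. Alternatives were the sign of replicate 1, centring, a common scale, averaging by gene, a robust prior, array weights, a missing value allowed, extreme probes left out, an adjusted p of 0.1 and leaving out each array. Simulated data had 200 changed probes in each of 20 rounds. On 3 arrays (5720 probes) limma at an adjusted p of 0.05 recovered 53.0% of 2-fold and 96.8% of 4-fold changes. On 4 arrays (5687 probes) it recovered 78.1% and 98.6%. The simulated noise was independent and drawn from limma's own variance prior, without dye effects or a shared control pool. On 3 arrays 4.94% of unchanged simulated probes had an unadjusted p under 0.05 in limma, against 9.67% of all real probes. These recovery rates therefore need not hold for the real arrays.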

Additional observations from a re-analysis of the deposited data

Results flagged for a closer look

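In 5 channel probes 1 array stood apart from the other three by more than Dixon's 95% critical value. The check was run for 72 probes with replicate 1 as deposited and again with it turned, and chance flags about 1 in 20 groups. There were 5 flags as deposited and 1 with replicate 1 turned. Both runs use the same values of replicates 2 to 4, so the 144 checks are not separate. Whether the 6 flags exceed chance was not tested. With replicate 1 as deposited, Hcn4 had 1.06 on replicate 3 against -0.76 to -0.65 elsewhere, and Trpc5 had -0.045 on replicate 2 against 0.65 to 0.69. Kcnj3 had -0.46 on replicate 3 against 0.31 to 0.42, and Cacna1g had -0.66 on replicate 2 against -0.18 to -0.11. Cacng3 had 0.56 on replicate 3, against -0.03 to 0.05 as deposited and against -0.05 to 0.05 with replicate 1 turned. Replicate 3 was the array apart in 4 of the flags and replicate 2 in the others.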

How the results depend on the processing

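No channel probe passed the adjusted threshold of limma under any alternative, and the smallest adjusted p of a named channel over them was 0.137, with array weights. Over all probes, the number past it was 2 with 4 arrays as deposited, 1 with a robust prior, 3 with array weights and 1 at an adjusted p of 0.1, against 0. The 4 channel probes at an unadjusted p under 0.05 on replicates 2 to 4 became 8 with replicate 1 turned, 15 with array weights (20.8%, against 18.7% of all probes) and 2 to 13 when an array was left out. With replicate 1 turned that range was 3 to 6, or 4.11% to 8.33% of channel probes, against 4.69% to 9.67% of all probes. As deposited it was 2 to 7, or 2.78% to 9.72% of channel probes, against 3.84% to 9.67% of all probes. The median of channel probes was -0.023 with replicate 1 turned, against -0.073, and -0.096 to -0.063 when an array was left out. The causes were not tested.

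Some means changed sign. With replicate 1 turned, Clcn3 had -0.069, Hcn4 0.10, Kcnj3 -0.028, Kcnj6 -0.017 and Kcna4 -0.015. As deposited, Kcnh2 had -0.28 and Trpc1 -0.11. Array weights gave Clcn6 0.018, Kcna4 -0.12 and Kcnh2 -0.13, and a common scale gave Kcnh2 -0.060. Leaving out an array gave ranges across 0, from -0.42 to 0.021 for Cacna1b, -0.25 to 0.018 for Cacna1e, -0.089 to 0.19 for Clcn3, -0.53 to 0.14 for Clcn6, -0.34 to 0.054 for Clcn7, -0.51 to 0.0037 for Hcn3, -0.70 to 0.20 for Hcn4, -0.20 to 0.40 for Kcna4, -0.27 to 0.20 for Kcnh2, -0.072 to 0.37 for Kcnj3, -0.065 to 0.26 for Kcnj6, -0.20 to 0.085 for Kcnma1 and -0.063 to 0.069 for Trpc1. No paired analysis was possible because all arrays belong to 1 group and share a single control pool.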
